A study of Homo sapiens with 8 samples.

Results

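The genes described here are 10 detoxification and antioxidant genes: the aldo-keto reductases AKR1C3, AKR1C2 and AKR1B10, the cytochrome P450 CYP1B1, the NRF2-type enzymes NQO1, HMOX1, GCLM and TXNRD1, and the glutathione peroxidases GPX2 and GPX3. They were chosen after AKR1C3 and CYP1B1 were seen to differ strongly between breast lines and in HMLE cells labelled Foxq1, so their levels in those contrasts are a description and were not tested. All 10 genes were found, by 12 probes of 24526 and as 10 of 16922 named genes. NQO1 and TXNRD1 have 2 probes each and the other 8 genes have 1.

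RNA from human breast cell lines was measured on 8 Illumina bead arrays, 1 array per group. SUM1315, MDA-MB231 and SUM159 are breast cancer lines, given as basal-like, and carried no construct. Stable SUM159 derivatives held IRX5, a homeobox factor, or the bacterial reporter LacZ as control. HMLE, an immortalised human mammary epithelial line, was profiled with stable LacZ, with Gcnt2, a glycosyltransferase, or with Foxq1, a forkhead factor. The promoters of the constructs were not analysed here, nor whether a transfected line was 1 clone or a pool. Each group is 1 array, so differences are given without a test.

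Median intensity lay between 159.7 and 159.9 in all arrays, and between 10319 and 10655 genes per array exceeded a detection limit of 142 on the intensity scale. The FOXQ1 probe went against its label, at 299 in the array labelled Foxq1 and 1641 in HMLE LacZ. The IRX5 probe read 151 in the array labelled IRX5 and 165 in SUM159 LacZ, while 1 GCNT2 probe read 9104 in HMLE Gcnt2 and 106 in HMLE LacZ. The other GCNT2 probes were under the limit in both of these HMLE arrays, the brightest of them at 129 and 123. Where the construct does not cover the probe, such a reading settles nothing, and directions for the arrays labelled Foxq1 and IRX5 rest on the labels. The array labelled Foxq1 also stood apart in its probes: of 649 genes with at least 2 probes over an intensity of 500 in either HMLE array compared, 90 had probes that disagreed by over 4-fold in their difference from LacZ, against 0 of 613 for Gcnt2. The basal keratins KRT5 and KRT14 lay under the detection limit in all 5 cancer line arrays and between 8303 and 21430.0 in the HMLE arrays. ESR1 and PGR, the hormone receptors, were under the limit in all 8 arrays.

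Cells meet reactive aldehydes, quinones and peroxides with a battery of enzymes that reduce or conjugate them. Many of these genes are switched on by NRF2 (gene NFE2L2), a transcription factor that the adaptor KEAP1 marks for degradation and that oxidants or electrophiles release. It binds antioxidant response elements, where BACH1 can repress HMOX1. CYP1B1 belongs to the separate battery of the aryl hydrocarbon receptor AHR, which pairs with ARNT on xenobiotic response elements, and in breast tissue it hydroxylates oestrogens.

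The reference promoters are shown for GCLM, TXNRD1 and GPX2 because these 3 hold TGACNNNGC, the core of the antioxidant response element, within 250 bases before and 50 bases after the start site. RefSeq windows (GRCh38.p14) were matched for 7 of the 10 genes, 9 windows in all. AKR1B10, CYP1B1 and HMOX1 had no window and were not searched. On either strand the core was found in 4 of the 9, TXNRD1 having 2 such windows, and in 13.3% of all 35116 windows. Capitals mark each match, written on the opposite strand except for the first in the upstream TXNRD1 window. The windows are chr1:93909381-93909680 (GCLM, minus strand), chr12:104215529-104215828 and chr12:104286782-104287081 (TXNRD1, upstream and downstream start, plus strand), and chr14:64942696-64942995 (GPX2, minus strand).
GCLM: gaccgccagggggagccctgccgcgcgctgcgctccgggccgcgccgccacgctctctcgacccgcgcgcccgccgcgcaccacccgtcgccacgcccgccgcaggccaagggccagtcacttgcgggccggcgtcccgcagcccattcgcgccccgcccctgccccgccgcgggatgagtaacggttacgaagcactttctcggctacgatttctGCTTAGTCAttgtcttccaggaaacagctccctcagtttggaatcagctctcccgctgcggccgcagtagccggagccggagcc
TXNRD1 upstream: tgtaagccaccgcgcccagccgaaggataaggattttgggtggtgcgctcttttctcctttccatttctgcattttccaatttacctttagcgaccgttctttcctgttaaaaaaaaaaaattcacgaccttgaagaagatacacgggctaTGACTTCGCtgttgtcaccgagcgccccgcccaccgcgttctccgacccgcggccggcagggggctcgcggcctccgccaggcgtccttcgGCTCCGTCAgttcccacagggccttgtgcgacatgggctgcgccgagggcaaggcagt
TXNRD1 downstream: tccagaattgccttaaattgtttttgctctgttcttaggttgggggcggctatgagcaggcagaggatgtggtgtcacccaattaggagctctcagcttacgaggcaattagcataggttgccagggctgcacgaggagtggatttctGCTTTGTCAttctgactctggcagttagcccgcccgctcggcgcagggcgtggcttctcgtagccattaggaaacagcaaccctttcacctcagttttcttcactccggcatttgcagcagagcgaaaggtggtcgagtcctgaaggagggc
GPX2: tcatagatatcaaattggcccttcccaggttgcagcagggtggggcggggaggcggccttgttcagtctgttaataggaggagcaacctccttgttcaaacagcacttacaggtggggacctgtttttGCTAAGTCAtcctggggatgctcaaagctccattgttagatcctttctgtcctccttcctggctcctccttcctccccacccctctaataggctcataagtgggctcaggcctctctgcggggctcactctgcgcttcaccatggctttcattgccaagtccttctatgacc
A match is a description of letters and not a site. These genes had no common pattern over the arrays: GCLM varied least, TXNRD1 was lower in HMLE cells and GPX2 was above the limit only in HMLE cells, as given below. The core of the xenobiotic response element, GCGTG, was found on either strand in the windows of GCLM, NQO1 and TXNRD1 and in 36.5% of all windows, and none of these overlapped a match of the other core. CYP1B1 had no window, so its promoter was not searched for this core.

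AKR1C2 and AKR1C3 are neighbours on chromosome 10 and are shown because their levels moved together over the arrays. Their windows are chr10:5003808-5004107 (minus strand) and chr10:5094164-5094463 (plus strand). Capitals mark the longest run of letters that both hold, 19 bases, which starts at base 163 of the AKR1C2 window and base 158 of the AKR1C3 window.
AKR1C2: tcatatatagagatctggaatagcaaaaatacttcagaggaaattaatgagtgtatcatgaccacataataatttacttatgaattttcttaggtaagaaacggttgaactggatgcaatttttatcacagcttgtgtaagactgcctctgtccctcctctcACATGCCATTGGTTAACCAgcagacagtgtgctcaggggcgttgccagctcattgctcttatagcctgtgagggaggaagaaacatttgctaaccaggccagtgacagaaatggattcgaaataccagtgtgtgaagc
AKR1C3: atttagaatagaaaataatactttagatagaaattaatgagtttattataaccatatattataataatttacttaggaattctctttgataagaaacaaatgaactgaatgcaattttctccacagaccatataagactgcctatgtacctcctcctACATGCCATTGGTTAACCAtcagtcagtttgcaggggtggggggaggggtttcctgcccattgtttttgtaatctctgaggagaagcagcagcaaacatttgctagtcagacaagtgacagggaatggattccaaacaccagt
Coding sequences of this family are close copies of each other, and cross-hybridisation between its probes was not tested.

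**Figure D1:**
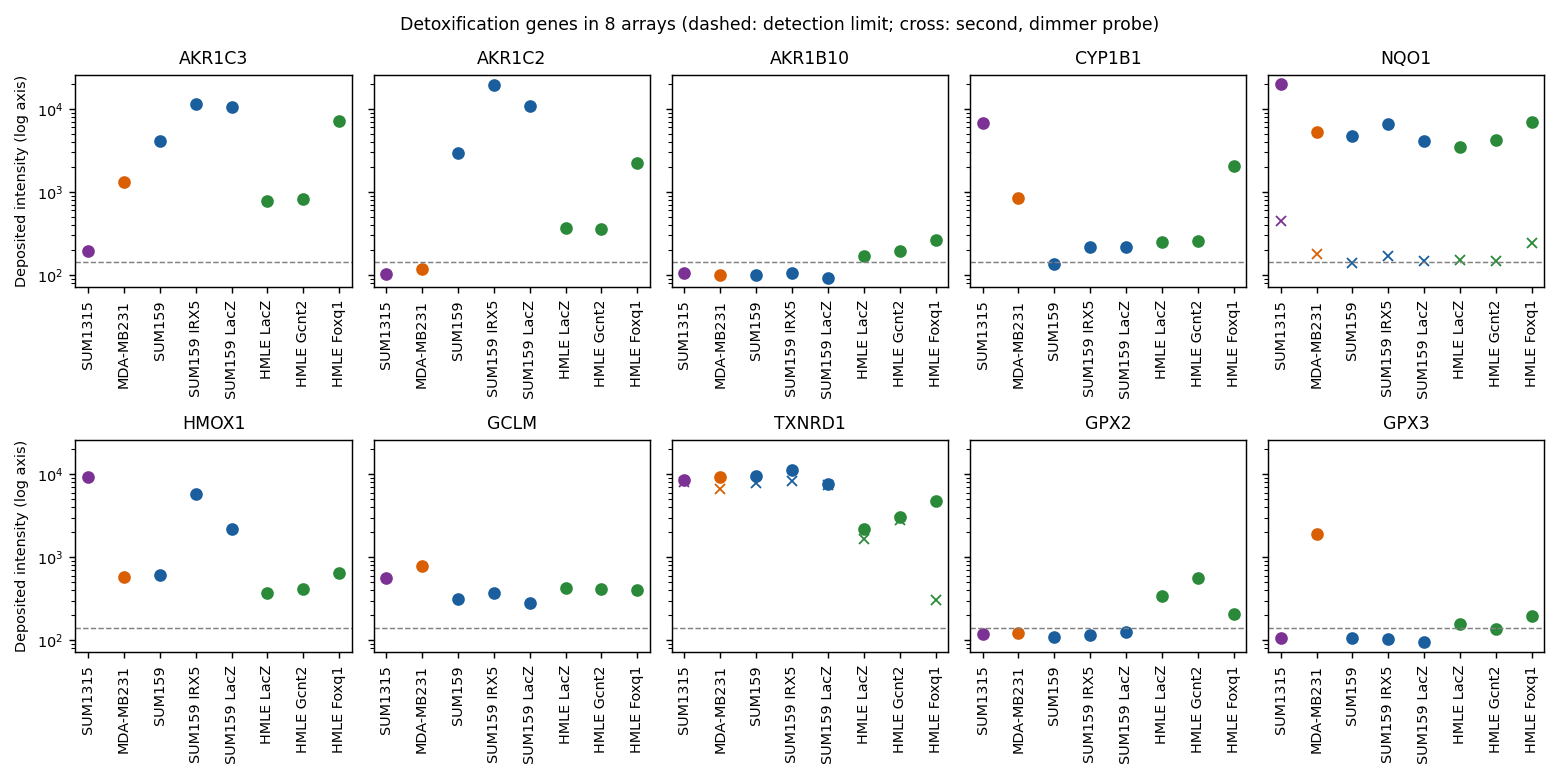
Deposited intensity (log axis) of each detoxification gene in each of the 8 arrays, 1 point per array; the dashed line is the detection limit of 142 and crosses are the dimmer of 2 probes. AKR1C3 and AKR1C2 are highest in the SUM159 arrays carrying a construct, CYP1B1, NQO1 and HMOX1 are highest in SUM1315, and GPX3 stands out in MDA-MB231 at 1901.

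AKR1C3 reduces ketosteroids and prostaglandins. Its intensity was 11329 in SUM159 IRX5, 10483 in SUM159 LacZ, 7184 in the array labelled Foxq1, 4070.2 in untransfected SUM159, 1336 in MDA-MB231, 819 in HMLE Gcnt2, 784 in HMLE LacZ and 193 in SUM1315. All 8 arrays were above the detection limit, and the array labelled Foxq1 lay inside the SUM159 range, far from the other HMLE arrays. Of the 7 steps between neighbours in this order, 2 were smaller than 0.47 on the log2 scale, the SD of the difference between SUM159 LacZ and untransfected SUM159 over all genes compared; these were the step between the transfected SUM159 arrays and that between HMLE Gcnt2 and LacZ. That SD, from arrays that differ by a vector, is the nearest to a replicate spread the study holds.

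AKR1C2 inactivates dihydrotestosterone. It read 19256 in SUM159 IRX5, 10680.4 in SUM159 LacZ, 2952 in SUM159 and 2225 in the array labelled Foxq1. It read 356 in HMLE Gcnt2 and 366 in HMLE LacZ, and was under the limit in MDA-MB231 at 118 and in SUM1315 at 103. Over the 8 arrays the log2 values of AKR1C2 and AKR1C3 had a Pearson correlation of 0.91, a description over arrays that share lines; MDA-MB231 departed from it, with AKR1C3 well above the limit and AKR1C2 below. The probe of AKR1C1, a close relative of AKR1C2, was under the limit in all 8 arrays, at most 104.

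AKR1B10 reduces retinal and other aldehydes. It was above the limit only in the 3 HMLE arrays, at 168 in LacZ, 194 in Gcnt2 and 268 in the array labelled Foxq1. The 5 cancer line arrays read between 93.6 and 107, all under the limit, so the groups did not overlap.

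CYP1B1 had another order. It read 6759.8 in SUM1315, 2065 in the array labelled Foxq1, 855 in MDA-MB231, 258 in HMLE Gcnt2, 252 in HMLE LacZ, 218 in SUM159 IRX5, 217 in SUM159 LacZ and 136 in untransfected SUM159, under the limit. SUM159, the line with the highest AKR1C3, was thus lowest in CYP1B1, and SUM1315 was the reverse. The other lines did not follow this: HMLE LacZ and Gcnt2 lay below MDA-MB231 in both genes. The array labelled Foxq1 was high in both. The Pearson correlation between the genes was -0.51 over the 8 arrays, which share lines. The step from MDA-MB231 down to HMLE Gcnt2 was 1.86 on the log2 scale, and the 4 arrays from HMLE Gcnt2 to SUM159 LacZ differed by less than the reference SD from one to the next.

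NQO1 reduces quinones by a hydride transfer that avoids semiquinones. Its brighter probe read 19780.2 in SUM1315 and between 3496 (HMLE LacZ) and 7028 (the array labelled Foxq1) in the other 7 arrays. Of its 7 steps, 6 were below the reference SD, the exception being the step of 1.5 from SUM1315 to the next array. The dimmer probe also had its highest value in SUM1315, 448, followed by 246 in the array labelled Foxq1, and lay between 141 and 181 in the rest.

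HMOX1 breaks down haem. It read 9142 in SUM1315, 5835 in SUM159 IRX5 and 2184 in SUM159 LacZ, and then 653 in the array labelled Foxq1, 615 in SUM159, 577 in MDA-MB231, 417 in HMLE Gcnt2 and 369 in HMLE LacZ. The 3 SUM159 arrays spanned a range of 3.31 on the log2 scale, the widest of the 10 genes within that line. HMLE arrays spanned 0.88.

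GCLM, the regulatory subunit of the enzyme that starts glutathione synthesis, varied least, from 281 in SUM159 LacZ to 775 in MDA-MB231. Each of its 7 steps was below the reference SD. TXNRD1, which keeps thioredoxin reduced, read between 7542 and 11124 in the 5 cancer line arrays by its brighter probe, and 2159.8 in HMLE LacZ, 3043 in HMLE Gcnt2 and 4717 in the array labelled Foxq1. Cancer line and HMLE arrays did not overlap.

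GPX2, an epithelial glutathione peroxidase, was above the limit in the 3 HMLE arrays only, at 559.9 in Gcnt2, 342 in LacZ and 211 in the array labelled Foxq1, and read between 109 and 125 elsewhere. GPX3, a secreted peroxidase, read 1901 in MDA-MB231, 197 in the array labelled Foxq1 and 157 in HMLE LacZ. It was under the limit in the other 5 arrays, between 95.2 and 139.

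Comparisons between arrays used log2 differences of background-corrected intensity. Genes entered a comparison if either array of the pair exceeded the limit, the dimmer value was raised to the limit where it fell below (written "at least"), and genes at least 2-fold apart were counted. Because the correction removes background, such folds, bounds included, may be larger than printed intensities divided by each other. All 10 genes exceeded the limit in HMLE LacZ, and 6 did in SUM1315 and in SUM159. Counts over the genes compared leave out the others. Medians of differences, for the 10 genes, the gene lists and all genes, use values not raised to the limit.

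**Figure D2:**
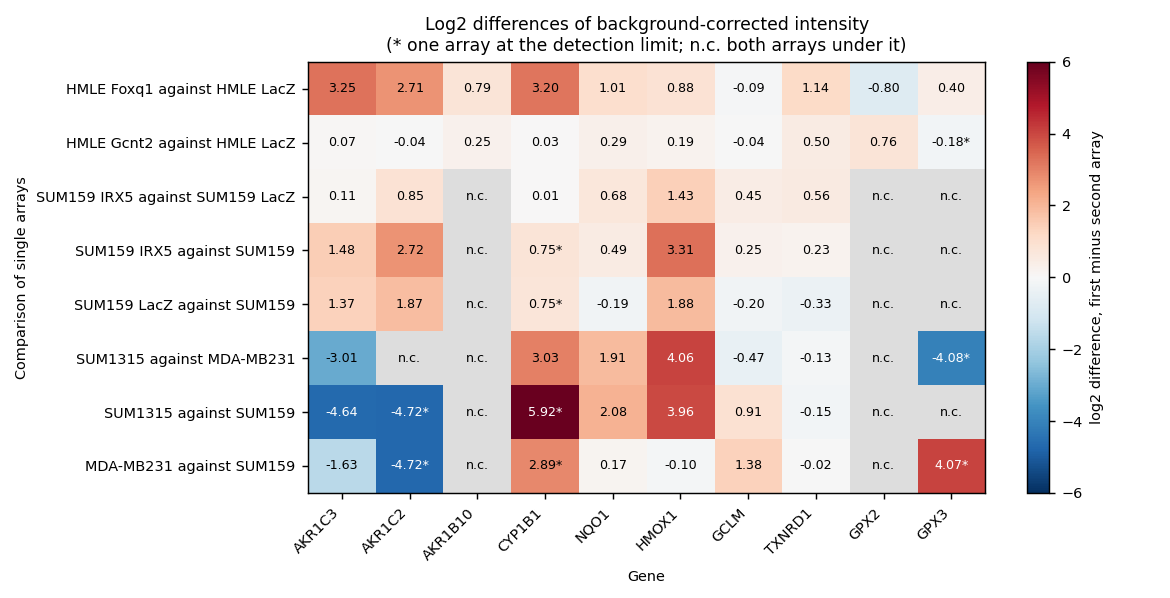
Log2 difference of background-corrected intensity (colour and printed value, first minus second array) of each detoxification gene in 8 comparisons of single arrays; an asterisk marks a difference computed with 1 array at the detection limit and n.c. marks genes with both arrays under it. SUM1315 against SUM159 holds the widest differences, 5.92 for CYP1B1 and -4.72 for AKR1C2, and HMLE Gcnt2 against LacZ holds none of at least 1.

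The design text names the comparison of SUM1315, MDA-MB231 and SUM159 as a purpose. SUM1315 was high in CYP1B1, NQO1 and HMOX1 and low in the AKR1C genes, SUM159 was high in the AKR1C genes, and MDA-MB231 was high in GPX3. Against SUM159, CYP1B1 was at least 60.6-fold, HMOX1 15.6-fold and NQO1 4.22-fold higher in SUM1315, while AKR1C3 was 24.9-fold and AKR1C2 at least 26.3-fold lower. That makes 5 of 7 genes compared, where 18.7% of all genes compared were called. The median difference of the 7 was 0.91 against -0.01 for all genes compared. Because the genes were chosen partly on these contrasts, nothing is read from the counts.

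Against MDA-MB231, SUM1315 was 16.7-fold higher in HMOX1, 8.17-fold in CYP1B1 and 3.75-fold in NQO1. It was 8.06-fold lower in AKR1C3 and at least 16.9-fold lower in GPX3. These are 5 of 7 genes compared, against 21.8% of all genes. AKR1C2 had no fold there since both arrays were under the limit. The dimmer NQO1 probe was 2.78-fold higher, the same direction as the brighter.

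MDA-MB231 against SUM159 called 5 of 8 genes, against 14.3% of all genes. GPX3 was at least 16.8-fold, CYP1B1 at least 7.42-fold and GCLM 2.61-fold higher in MDA-MB231. AKR1C2 was at least 26.3-fold and AKR1C3 3.09-fold lower. HMOX1, NQO1 and TXNRD1 were within 1.13-fold of each other in these lines. TXNRD1 lay within 1.11-fold in all 3 comparisons of lines by its brighter probe.

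Within SUM159, the LacZ array and the untransfected array already differed in 3 of the 7 genes compared, against 3.53% of all genes, all 3 higher with LacZ, as were 2.24% of all genes. HMOX1 was 3.69-fold, AKR1C2 3.65-fold and AKR1C3 2.59-fold higher. CYP1B1 was at least 1.68-fold higher, and NQO1, GCLM and TXNRD1 were 1.14-fold, 1.14-fold and 1.26-fold lower. The median of the 7, over values not raised to the limit, was 0.82, against -0.01 for all genes compared. Some markers of other cell types moved in the same arrays. CD14 read 179 in untransfected SUM159, 426 with LacZ and 1072 in the array labelled IRX5, the order of HMOX1. DCN read 1319, 2748 and 3029 in these arrays. None of the other markers above the limit rose in this order over the 3 arrays, though GATA3 and CD68 read above untransfected in both construct arrays. GATA3 read 156, 202 and 190, and KRT8 fell, at 1200, 882 and 715. THY1 read 198, 323 and 151, PDGFRB 385, 381 and 427, and CD68 619, 819 and 664. The 4 leukocyte markers (PTPRC, CD3E, CD14 and CD68) summed to 1044, 1497 and 1981 with PTPRC and CD3E under the limit in all 3 arrays, and the 6 fibroblast markers (DCN, COL1A2, PDGFRB, LUM, THY1 and FAP) to 2228, 3784 and 3952 with COL1A2, LUM and FAP under it. Their part in the results was not tested, and in bulk RNA fewer cells of a type and less RNA per cell cannot be told apart. The array labelled IRX5 shares its untransfected control with this pair.

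Set against untransfected SUM159, the array labelled IRX5 was higher in the same 3 genes, HMOX1 by 9.93-fold, AKR1C2 by 6.58-fold and AKR1C3 by 2.80-fold, where 6.36% of all genes compared were called. Against SUM159 LacZ only HMOX1 was 2-fold apart, 2.70-fold higher, 1 of 7 genes where 3.12% of all genes were called. AKR1C2 was 1.81-fold, NQO1 1.61-fold, TXNRD1 1.48-fold and GCLM 1.36-fold higher there, and AKR1C3 and CYP1B1 were within 1.08-fold. Of the genes compared, HMOX1 alone was at least 2-fold from each SUM159 control, which held for 1.54% of all genes compared. HMOX1 is a single probe on a single array, so no spread can be put beside this value.

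In HMLE cells, the array labelled Foxq1 was higher than LacZ in AKR1C3 (9.50-fold), CYP1B1 (9.19-fold), AKR1C2 (6.55-fold), TXNRD1 (2.20-fold by its brighter probe) and NQO1 (2.02-fold). These are 5 of 10 genes, where 11.7% of all genes compared were called in either direction and 6.21% of all genes compared were higher. Since AKR1C3 and CYP1B1 were chosen on this contrast, nothing is read from the count. HMOX1 was 1.84-fold, AKR1B10 1.73-fold and GPX3 1.32-fold higher. GPX2 was 1.74-fold lower and GCLM 1.06-fold lower. The median of the 10 was 0.95 on the log2 scale, against 0.09 for all genes compared.

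The probes of TXNRD1 disagreed in that array. The brighter probe, for transcript NM_003330, read 4717 against 2159.8 in LacZ. The other, for NM_182743, read 304 against 1657, 5.96-fold lower. In the other 7 comparisons the probes lay at most 0.43 apart on the log2 scale, and a direction for TXNRD1 in the array labelled Foxq1 cannot be given. The dimmer NQO1 probe was 1.77-fold higher, under the 2-fold line but in the direction of the brighter. AKR1C3, AKR1C2 and CYP1B1 have no second probe.

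**Figure D3:**
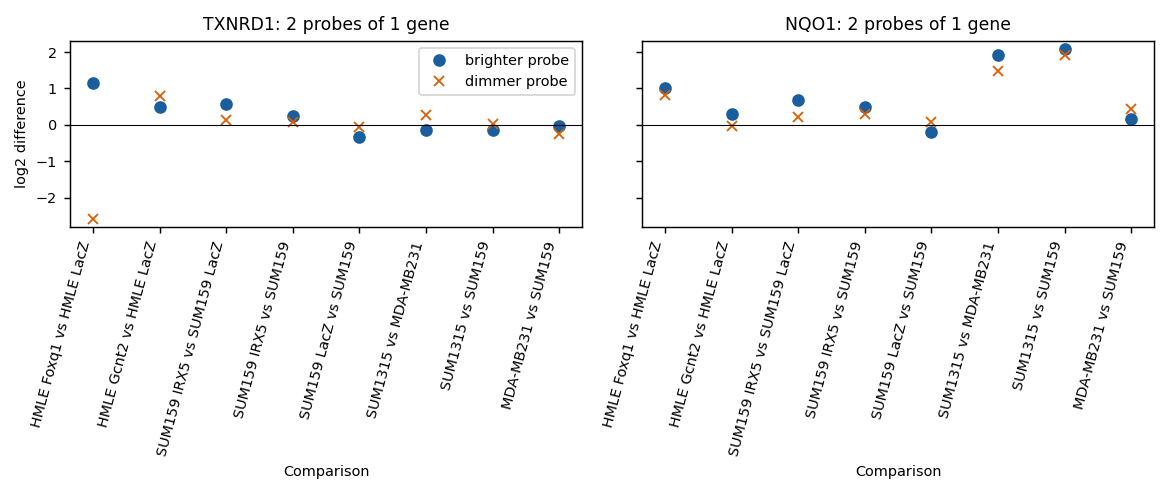
Log2 difference (first minus second array) of both probes of TXNRD1 and of NQO1 in 8 comparisons of single arrays; circles are the brighter and crosses the dimmer probe. The TXNRD1 probes part in the array labelled Foxq1 against LacZ, at 1.14 and -2.58, and the NQO1 probes lie at 1.01 and 0.82 there.

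Markers of other cell states moved with the array labelled Foxq1. The summed intensity of the 6 fibroblast markers was 18498 there, 4034 in HMLE LacZ and 2352 in HMLE Gcnt2, with 5, 5 and 4 markers above the limit and LUM under it in each. DCN made up most of that sum, at 10807 in the array labelled Foxq1. Of 5 fibroblast markers compared with LacZ, 4 were at least 2-fold higher, where 6.21% of all genes compared were, and FAP read 1047 against 1175. The 4 basal epithelial markers with a probe (KRT5, KRT14, CDH1 and EPCAM) summed to 18901 in the array labelled Foxq1, 36351 in LacZ and 51992 in Gcnt2, and all 4 were above the limit; CDH1 alone of the 4 fell below LacZ by 2-fold or more, at 1191 against 8097. The 6 luminal and hormone receptor markers summed to 2850.2, 5928 and 6113 in the same order, with 2, 4 and 4 above the limit. Of 4 luminal markers compared with LacZ, 2 were at least 2-fold lower, where 5.53% of all genes compared were. KRT18 read 87.7 against 637 and FOXA1 139 against 591, both under the limit in the array labelled Foxq1. The 4 leukocyte markers summed to 2409 in the array labelled Foxq1, 1516 in LacZ and 1278 in Gcnt2. PTPRC and CD3E were under the limit in the array labelled Foxq1, while CD14 read 1574 there, 645 in LacZ and 383 in Gcnt2, and CD68 read 613, 641 and 641. Their part in the results was not tested.

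HMLE Gcnt2 differed from LacZ by under 2-fold in all 10 genes, where 1.05% of all genes compared were called. The widest differences were 1.70-fold higher for GPX2, 1.41-fold higher for TXNRD1 and 1.22-fold higher for NQO1. AKR1C3, AKR1C2 and CYP1B1 were within 1.05-fold. GPX2 thus read above LacZ in Gcnt2 and below it in the array labelled Foxq1; both comparisons share the LacZ array.

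The 3 SUM159 arrays were also set against the 3 HMLE arrays. Arrays of a line carry different constructs and are not replicates. By its brightest probe, no gene of the 10 had all arrays at least 2-fold apart, where 4.43% of all genes compared did. Without the array labelled Foxq1, 4 did, where 8.29% of all genes compared did: AKR1C2 was 25.5-fold, AKR1C3 10.1-fold and TXNRD1 3.65-fold higher in SUM159 by mean log2 value, and GPX2 at least 3.66-fold lower. With it, these mean differences were 13.6-fold, 4.83-fold, 2.97-fold and at least 2.78-fold. The dimmer TXNRD1 probe read between 7485 and 8183 in the SUM159 arrays and between 304 and 2843 in the HMLE arrays. By that probe all arrays were over 2-fold apart, also with the array labelled Foxq1. AKR1C3 and HMOX1 did not overlap without the array labelled Foxq1 and overlapped with it, since its 7184 for AKR1C3 exceeded 4070.2 in untransfected SUM159 and its 653 for HMOX1 exceeded 615. By any amount, 6 of the 10 genes did not overlap between the 3 and 3 arrays, where 37.7% of all genes compared did not. Without the array labelled Foxq1 it was 8 of 10, against 55.2%.

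The regulators of these genes were measured on the same arrays. NFE2L2, which encodes NRF2, read between 2058 in MDA-MB231 and 4577 in SUM159 IRX5. KEAP1 read 3388 in SUM1315 and between 1053 and 1823 elsewhere by its brightest probe. SUM1315, highest in NQO1 and HMOX1, was also highest in the message of the NRF2 inhibitor, 2.47-fold above SUM159, and a further KEAP1 probe also read highest there, at 3136. BACH1 was under the limit in all 8 arrays. SQSTM1, which encodes the KEAP1-binding adaptor p62, read 14391 in SUM1315, 11489.9 in SUM159 LacZ, 10822 in SUM159 IRX5 and between 2083 and 4579.7 elsewhere, so its 3 highest arrays were the 3 highest for HMOX1. AHR read between 181 and 478, lowest in the array labelled Foxq1 and in SUM1315 (183), which were the 2 highest arrays for CYP1B1. ARNT was above the limit in 1 array and CYP1A1, the classic AHR target, in 4, at most at 191.

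Of the list of other NRF2-type targets, 20 genes were compared between the array labelled Foxq1 and LacZ, 3 of them at least 2-fold higher and 1 lower, where 6.21% of all genes compared were higher and 11.7% were called in either direction, with a median of 0.44 against 0.09 for all genes. The epoxide hydrolase EPHX1 was 2.69-fold, glutathione synthetase GSS 2.35-fold and ferritin light chain FTL 2.31-fold higher, and TRIM16 was at least 2.81-fold lower. None of 6 NRF2 regulators and none of 4 other aldo-keto reductases compared was 2-fold apart by its brightest probe, with medians of 0.27 and 0.53; the further KEAP1 probe was, 2.01-fold higher at 2019 against 1022, beside 1.32-fold by the brightest. In the AHR list 1 of 5 was, the aldehyde dehydrogenase ALDH3A1, higher by at least 1.59 on the log2 scale, with a list median of -0.13. In SUM159, LacZ against untransfected had 0 of 21 NRF2-type targets 2-fold apart (median -0.09), where 3.53% of all genes were, and the array labelled IRX5 against LacZ had 1, the cystine transporter SLC7A11, 2.35-fold higher (median 0.04), where 3.12% of all genes were. SLC7A11 was also 2.26-fold above untransfected SUM159. For Gcnt2 against LacZ, 0 of 20 were 2-fold apart (median 0.03), where 1.05% of all genes were.

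**Figure D4:**
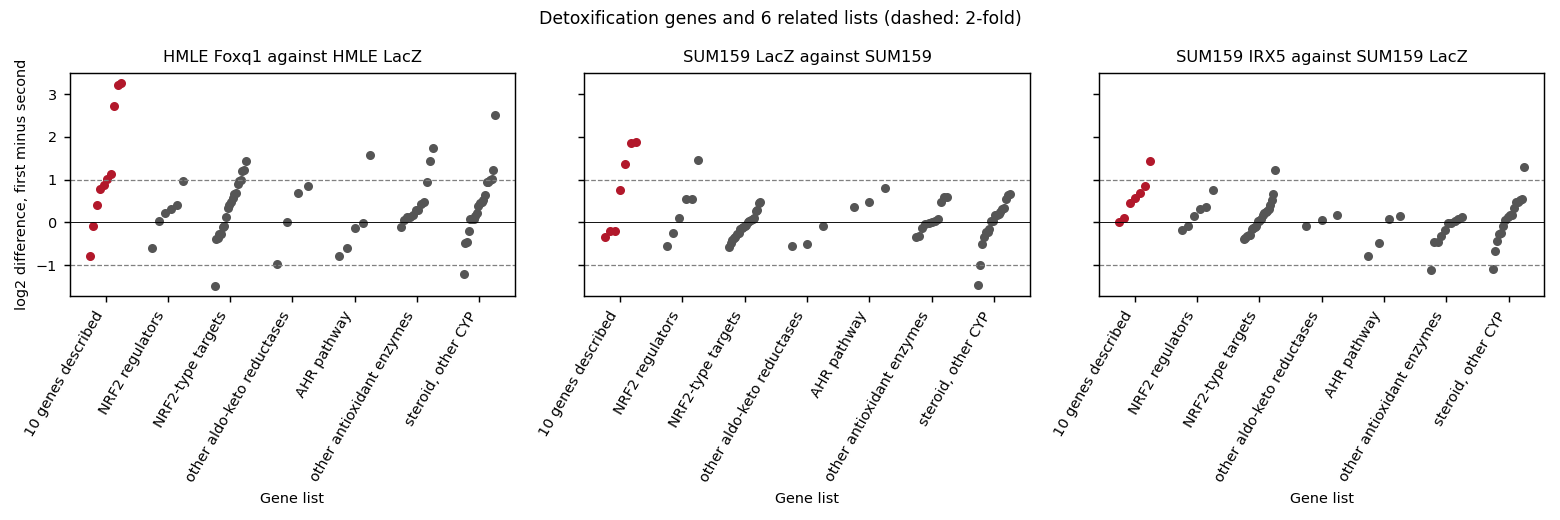
Log2 difference (first minus second array) of every gene compared, 1 point per gene, for the 10 detoxification genes (red) and 6 related lists (grey) in 3 comparisons; dashed lines mark 2-fold. AKR1C3, CYP1B1 and AKR1C2 lie above all points of the related lists in the array labelled Foxq1 against LacZ, at 3.25, 3.20 and 2.71. AKR1C3 and CYP1B1 were chosen on this contrast and the related lists were not, so nothing is read from their place.

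Between the lines, the counts of NRF2-type targets are given beside the share of all genes called. SUM1315 against SUM159 had 4 of 22 called, where 18.7% of all genes were, so its count is near that share. These were 1 higher, the redox-sensitive iron protein gene PIR (2.18-fold), and 3 lower: the exporter ABCC2 (at least 3.69-fold), the microsomal transferase MGST1 (a log2 difference of -1.58) and sulfiredoxin SRXN1 (2.85-fold). The list median was -0.07 while NQO1 and HMOX1 were 4.22-fold and 15.6-fold higher. SUM1315 against MDA-MB231 had 4 of 22 called, where 21.8% of all genes were: 2 higher, PIR (4.23-fold) and the biliverdin reductase BLVRB (2.86-fold), and 2 lower, SRXN1 (5.31-fold) and the glutathione transferase GSTM3 (4.66-fold). MDA-MB231 against SUM159 had 3 higher and 3 lower of 22, where 14.3% of all genes were called, led by GSTM3 (at least 5.73-fold higher) and MGST1 (3.14-fold lower). Of the NRF2 regulators, 3 of 6 compared were at least 2-fold apart in SUM1315 against SUM159, where 9.85% of all genes were higher and 18.7% were called in either direction, all 3 higher: SQSTM1 (3.47-fold), KEAP1 (2.47-fold) and NFE2L1 (2.16-fold).

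The genes whose pattern over the 8 arrays was most like that of AKR1C3, among 2489 genes above the limit in some array and with a range of at least 2 on the log2 scale, were CEBPB, which encodes C/EBP beta (Pearson r = 0.99), FAM167A (0.97), the fatty acid ligase gene ACSL1 (0.96), the aldehyde oxidase AOX1 (0.95) and VSTM2L (0.94). AOX1 read 4267 in SUM159 and 4122 in the array labelled Foxq1, and 96.4 in SUM1315. For CYP1B1 they were CCDC74A (0.97), SEMA4B (0.97), DOCK2 (0.95), NINL (0.94) and HERC5, an interferon-induced ISG15 ligase (0.94). HERC5 read 5606 in SUM1315, 1858 in MDA-MB231 and 1328 in the array labelled Foxq1, and at most 458 in the rest. For AKR1B10 they were S100A13 (0.98), gelsolin GSN (0.97), TNS4 (0.97), the steroid dehydrogenase HSD17B2 (0.97) and ALOX15B (0.97). AKR1B10 itself had a range of 1.92, below that asked of these genes. It was above the limit only in the 3 HMLE arrays, as were TNS4 and HSD17B2. These correlations are descriptions over 8 arrays from 4 lines, the highest out of many.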

How the data were processed

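RNA of 8 cultures was measured on 8 arrays, with groups taken from the labels. The values the authors deposited are linear probe intensities (73.3 to 56056.2). Their ranked values are nearly equal in every array (coefficient of variation up to 1.19%), the mark of quantile normalization. The submitters' processing notes name R 2.11.1, lumi 1.14 and GenomeStudio without saying what each did, or how background was treated. Another table, 16 columns that no label ties to a sample, was not used.

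Symbols of 21834 probes came from the platform annotation, 21813 updated by Entrez number (RefSeq, GRCh38.p14, names and promoters only); 2692 probes are unnamed. Intensities were corrected with normexp (limma 3.58.1, R 4.3.3, offset 50). A gene is its brightest probe. The detection limit of 142 is the mode of intensities, 109.5, plus the spread below it mirrored upward, at a tail of 0.01. Calculations were tested on simulated data. Python 3.11.15, numpy 2.4.6 and pandas 2.3.3 were used.

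Members, lists and comparisons were chosen with earlier results of these data known. Named genes are all 10 members, 7 regulators or relatives, up to 4 per direction and list at least 2-fold apart (the leading ones are printed), and the 5 genes most like AKR1C3, CYP1B1 and AKR1B10. The detection limit was set after the values were seen, and the 2 promoter motifs were picked among several looked at. Alternatives were other background corrections, cyclic loess, other probe rules and other detection limits. The number of arrays limits the precision.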

Additional observations from a re-analysis of the deposited data

How the results depend on the processing

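Across 8 alternatives, 61 of 64 counts of detoxification genes at least 2-fold apart stayed within 1.5 times the reported count. With the mean of a gene's probes, 3 genes instead of 5 were 2-fold apart for the array labelled Foxq1 against HMLE LacZ, because TXNRD1 and NQO1 have a further probe, and 1 instead of 0 for the SUM159 against the HMLE arrays. Without the array labelled Foxq1 the latter count was 4. TXNRD1 reversed with the mean of probes, to -0.72 on the log2 scale for the array labelled Foxq1 against LacZ. Of 521 single differences, 506 moved by less than 0.47 on the log2 scale and 14 moved by more. Among differences counted as at least 2-fold apart, only that of TXNRD1 reversed. Changes of sign in the other differences were not counted. Genes near the detection limit have bounds only. No paired analysis was possible because each group has 1 array.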

Other observations

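Some related enzymes outside the 10 genes also differed. Of the list of other antioxidant enzymes, 2 of 12 compared were at least 2-fold apart for the array labelled Foxq1 against LacZ by their brightest probe. For all genes compared the share was 11.7%. The mitochondrial superoxide dismutase SOD2 read 26353 in SUM159 LacZ, 17503 in SUM159 and 12163 in SUM159 IRX5, 13147 in the array labelled Foxq1, 6253 in SUM1315, 4866 in HMLE LacZ, 4491 in HMLE Gcnt2 and 1156 in MDA-MB231. It was 15.5-fold lower in MDA-MB231 than in SUM159, and above LacZ by 2.71-fold in the array labelled Foxq1, with a second probe in the same direction. GPX7, an endoplasmic reticulum peroxidase, read 1103 in SUM1315 and 502 in the array labelled Foxq1, against 172 in HMLE LacZ, and was under the limit in MDA-MB231 and all SUM159 arrays.

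Of the list of steroid and other cytochrome P450 enzymes, 3 of 20 compared exceeded LacZ by at least 2-fold in the array labelled Foxq1 and 1 was lower, where 6.21% of all genes were higher and 5.53% lower. HSD17B2, which oxidises oestradiol and testosterone, was 5.66-fold higher, at 1573 against 304, and was under the limit in all 5 cancer line arrays. HSD17B14 read 902 in SUM1315 and under the limit in the other 7 arrays. SULT1E1, the oestrogen sulfotransferase, read 374 in untransfected SUM159, 156 in SUM159 LacZ and 166 in SUM159 IRX5.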
